A study of Mus musculus with 91 samples.

Results

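The genes described here are 50 mouse genes of G2 phase and mitosis, among them the mitotic cyclins and their kinase, the spindle motors, the kinetochore proteins and the genes of mitotic exit. They were taken as a list of symbols, and all 50 were found among the 23956 gene symbols of the table. Levels were measured by RNA sequencing of 91 single bone marrow cells, 46 labelled GMP (granulocyte-monocyte progenitor) and 45 labelled CD11b+ GMP-P. The surface protein CD11b, an integrin subunit of myeloid cells, is the product of Itgam. All cells came from C57BL/6 mice of genotype Gfi1-R412X/- Irf8+/-, that is, with the R412X allele of the repressor gene Gfi1 over a minus allele and with a single wild-type copy of Irf8, a transcription factor gene of monocyte development. The sort kept cells that lacked lineage markers and Sca-1 and carried CD117, CD34 and much CD16/32. Cells of other genotypes were not analysed here, so the levels below do not show an effect of either allele. No animal is named in the labels. Each population therefore counts as 1 sample, and no test between the populations was possible. The populations also carry different identifiers in their cell names, so a difference between cell types and one between runs or animals cannot be told apart.

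A dividing cell copies its DNA in S phase, prepares for division in G2 and then passes through mitosis. Entry into mitosis is driven by the kinase CDK1 bound to cyclin A or cyclin B. Exit requires the anaphase-promoting complex (APC/C), a ubiquitin ligase that marks cyclin B and securin for destruction. Transcripts of these genes are low in resting cells and in early G1, accumulate through S and G2 and peak around mitosis, so in a mixed population they vary strongly from cell to cell. Granulocyte-monocyte progenitors divide, and neutrophil precursors stop dividing as they mature.

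The populations differed in properties that bear on every value below. Genes above 0 numbered 2796 to 6383 per GMP cell (median 5461). Per CD11b+ GMP-P cell they numbered 2435 to 6161 (median 4147). The 50 highest genes of a cell held between 24.1% and 31.6% of its transcript level in GMP and between 26.4% and 78% in CD11b+ GMP-P. Levels are in TPM, a length-corrected unit scaled to the same sum in all cells, so the read depth of each cell is unknown. Late neutrophil granule genes, such as Camp and Ngp, had a summed level with a median of 1108 TPM in GMP (range 26.3 to 12942) and 99231 TPM in CD11b+ GMP-P (26.4 to 274069), with all 12 of the list reaching 10 TPM in some cell. The 11 GMP and primary granule genes, among them Mpo, Elane and Cd34, had medians of 60955 and 16778 TPM (ranges 9140 to 96371 and 40.2 to 91875). Of the surface markers of the sort, Itgam reached 10 TPM in 3 GMP cells and 24 CD11b+ GMP-P cells, and Kit (CD117) in 26 and 3. Cd34 did so in 41 and 14, and Ly6a (Sca-1) in 40 and 41. The labelled gate was on surface proteins, without Sca-1 and with CD117 and CD34. As transcripts, Ly6a in both populations ran against it, as did the low counts of Kit and Cd34 in CD11b+ GMP-P. Cd3e, Klf1, Hbb-b1 and C1qa, defining markers of T cells, erythroid cells and macrophages, were listed at 0 in every cell. Other genes of those lists were not. In some cell 8 of 15 erythroid and megakaryocyte, 5 of 14 lymphoid and 4 of 12 macrophage and dendritic genes reached 10 TPM, with summed levels of up to 777, 1143 and 1606 TPM. Genes of basophils and mast cells had a summed median of 462 TPM in GMP (0.18 to 24458) and 17 TPM in CD11b+ GMP-P (up to 131255). The part of these differences in the results below was not tested, though some results are also given for cells restricted by genes detected.

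As a set, the mitosis genes had nearly the same mean level in both populations, while most other genes were lower in CD11b+ GMP-P. The median difference over the 50 genes was -0.04. A difference here is the mean log2(TPM + 1) of the CD11b+ GMP-P cells less the mean of the GMP cells. Over the 10030 genes detected in 10% or more of the cells of one population or the other (measured genes) the median was -0.50, and over the 5133 genes detected in 50% or more (common genes) it was -1.05. A difference of 1 or more was called higher or lower. Of the 50 genes, 5 were higher in CD11b+ GMP-P (Mki67, Spc25, Ube2c, Nusap1 and Ccna2), against 2.45% of measured genes and 3.7% of common genes. A further 4 were lower (Pttg1, Ccnb1, Cks2 and Cks1b), or 8% of the list, against 29.9% of measured and 51.8% of common genes. The other 41 differed by less than 1. All but Cdc25b passed the filter for measured genes, and 40 were common genes.

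On a scale relative to the median of the common genes, 25 of the 50 were higher by 1 or more and 1, Pttg1, was lower, against 23.2% and 9.61% of measured genes and 14.9% and 18.6% of common genes. On that scale any gene with no difference at all counts as higher, and the 25 include Cdc25b, which was not a measured gene. With a pseudocount of 10 the count was 6, against 2.8% of measured genes at that setting. The share of cells showed a similar picture. At 10 TPM or more, 18 members were found in more CD11b+ GMP-P cells than GMP cells and 29 in fewer, although GMP had 1 cell more, against 17.2% and 73.6% of measured genes and 11.9% and 83.9% of common genes. The number called higher depended on which cells were compared. Among the 26 GMP and 21 CD11b+ GMP-P cells with between 3947 and 5645 genes above 0, a range common to both populations, 27 members were higher by 1 or more, against 5.88% of measured genes, and 1 was lower, against 16.7%. The median difference there was +1.07. Among cells with at least 4000 genes above 0 (42 and 24 cells), 10 were higher and 1 was lower, against 3.44% and 17.6% of measured genes. Pttg1 was the lower member in both.

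**Figure D1:**
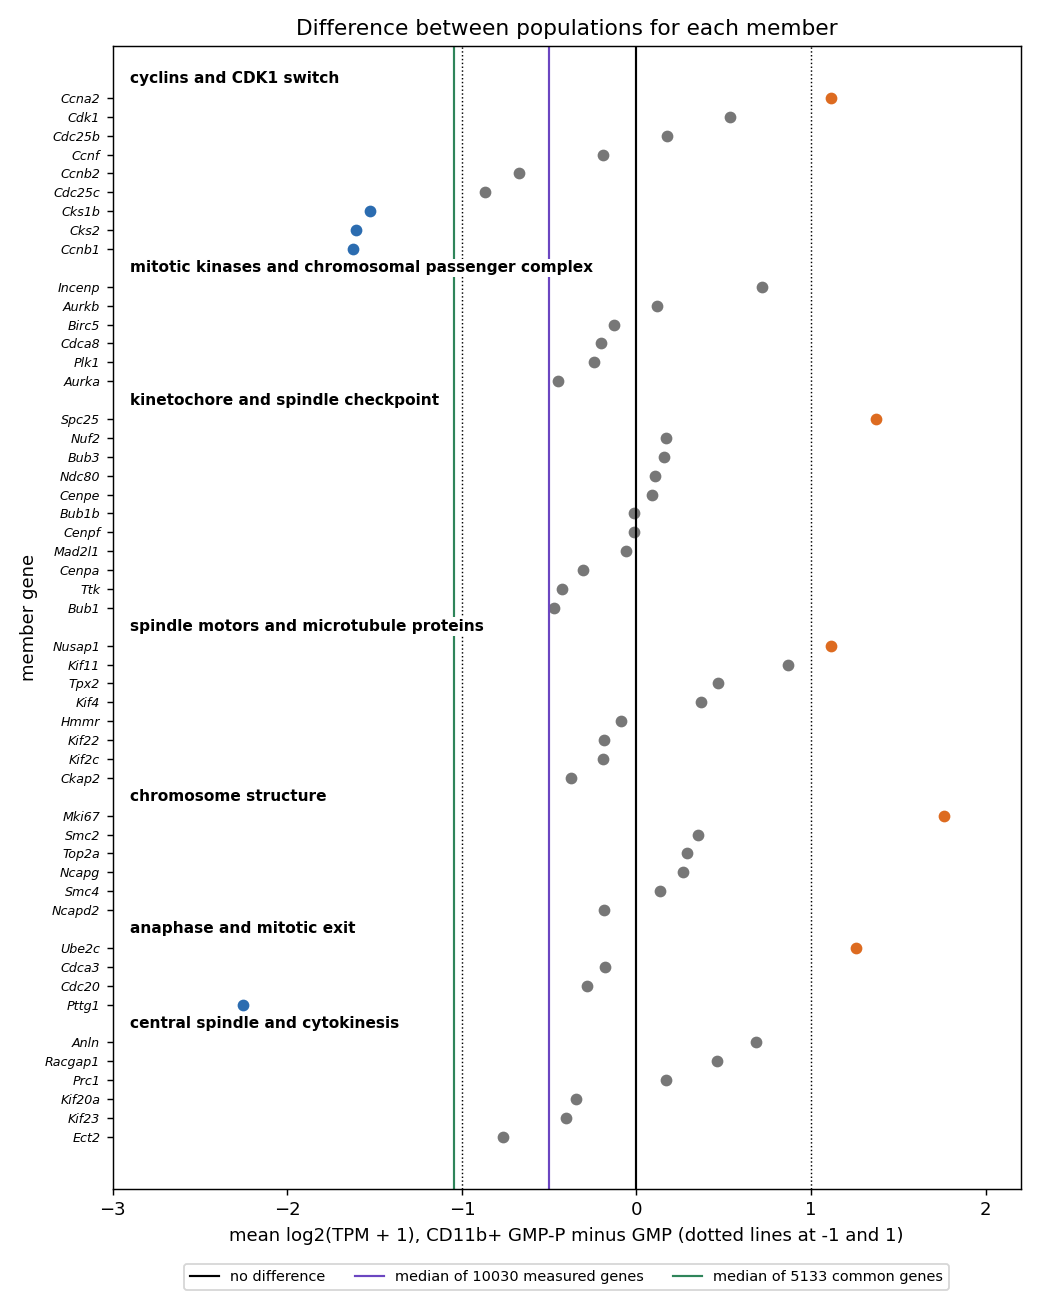
Difference of each of the 50 genes on the x axis, as mean log2(TPM + 1) in CD11b+ GMP-P minus GMP, grouped by role on the y axis, with orange points for genes higher by 1 or more, blue for lower and gray for the rest. Vertical lines mark no difference and the medians of all measured genes (-0.50) and common genes (-1.05), and most points lie to the right of both medians.

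The promoters of these genes share short sequences that the list did not use. RefSeq promoters on build GRCm38.p6, from 250 bases before to 50 after the annotated start, were found for 43 of the 50 genes (46 promoters). Ccna2, Cdc25c, Aurkb, Incenp, Tpx2, Smc4 and Kif20a had no entry. The motif TTTGAA, the usual form of the cell cycle genes homology region bound by the MuvB complexes that repress and then activate late cell cycle genes, was found on either strand in 36 of the 46 promoters (78.3%), against 17.9% of all 32851 promoters of this length. TTTAAA, a variant of that motif that reads the same on both strands, was found in 9 (19.6%, against 13.2%), and CCAAT, bound by the factor NF-Y, in 38 (82.6%, against 37.4%). CCAAT can share at most 1 base with either of the others. CCAAT together with TTTGAA or TTTAAA was found in 35 (76.1%, against 10.7%). Of 47 matches to TTTGAA, 32 began within 50 bases of the start. Matches are counted for each promoter, so a site shared by overlapping promoters of Bub3, Ect2 or Prc1 is counted for each of them. Positions were not counted over all promoters.

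The following sequences are the 120 bases before the annotated start, on the gene strand, for genes whose levels are described next. The first 3 were higher in CD11b+ GMP-P, the next 3 lower, and the last 3 differed by less than 1. Capitals mark matches to the 3 motifs on either strand.
Mki67: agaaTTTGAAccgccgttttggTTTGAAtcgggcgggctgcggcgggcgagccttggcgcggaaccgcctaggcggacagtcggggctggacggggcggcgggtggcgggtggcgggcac
Spc25: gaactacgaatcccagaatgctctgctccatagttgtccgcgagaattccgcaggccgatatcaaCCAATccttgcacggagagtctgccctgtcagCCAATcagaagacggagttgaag
Ube2c: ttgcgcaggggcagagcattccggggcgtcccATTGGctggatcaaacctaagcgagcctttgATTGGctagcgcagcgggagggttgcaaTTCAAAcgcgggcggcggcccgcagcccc
Cks1b: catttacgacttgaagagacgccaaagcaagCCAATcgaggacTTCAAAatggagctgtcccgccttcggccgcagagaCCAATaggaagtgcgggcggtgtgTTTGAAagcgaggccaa
Ccnb1: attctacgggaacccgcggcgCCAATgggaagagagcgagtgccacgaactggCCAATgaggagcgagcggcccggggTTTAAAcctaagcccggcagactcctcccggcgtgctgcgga
Pttg1: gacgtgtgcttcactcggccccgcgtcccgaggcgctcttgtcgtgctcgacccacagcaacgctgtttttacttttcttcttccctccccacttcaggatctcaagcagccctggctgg
Ccnb2: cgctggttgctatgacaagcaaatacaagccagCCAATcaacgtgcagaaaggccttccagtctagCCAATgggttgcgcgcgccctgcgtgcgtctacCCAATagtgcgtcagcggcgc
Cdk1: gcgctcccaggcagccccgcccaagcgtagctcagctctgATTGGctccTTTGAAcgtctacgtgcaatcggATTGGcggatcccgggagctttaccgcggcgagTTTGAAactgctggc
Cdc20: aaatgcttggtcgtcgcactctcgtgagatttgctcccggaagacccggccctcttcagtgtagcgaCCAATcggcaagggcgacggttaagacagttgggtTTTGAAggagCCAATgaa

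These stretches lie at chr7:135716380-135716499 (Mki67, minus strand), chr2:69206214-69206333 (Spc25, minus), chr2:164769809-164769928 (Ube2c, plus), chr3:89418292-89418411 (Cks1b, minus) and chr13:100786487-100786606 (Ccnb1, minus). The others lie at chr11:43425982-43426101 (Pttg1, minus), chr9:70421555-70421674 (Ccnb2, minus), chr10:69352913-69353032 (Cdk1, minus) and chr4:118437344-118437463 (Cdc20, minus). Counted with -1 as the base before the start, the TTTGAA nearest the start began at position -15 in Cdk1, -18 in Cdc20 and -17 in Cks1b. In Spc25 the single TTTGAA began after the start, at 25, and Ccnb2 had one at -167 and one at 5. Ccnb1 had TTTAAA at -42 and no TTTGAA in the window. Both forms were missing from the windows of Bub1, Cdc25b, Cks2, Mad2l1, Nuf2, Nusap1 and Pttg1, and those of Mad2l1, Nuf2, Nusap1 and Pttg1 also lacked CCAAT. A match says nothing here of binding, and the genes called higher and those called lower both included promoters with and without these motifs.

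Of the 9 genes of the cyclins and the CDK1 switch, 1 was higher in CD11b+ GMP-P and 3 were lower. The lower share, 33.3%, lay between the 29.9% of measured and the 51.8% of common genes. The higher share was 11.1%, against 2.45% and 3.7%. Ccna2, cyclin A2, which acts from S phase into early mitosis, was higher in CD11b+ GMP-P. Its level ran from 0 to 7.78 in GMP (median 1.17, mean 2.37 ± 2.74 SD over 46 cells) and from 0 to 8.58 in CD11b+ GMP-P (median 3.53, mean 3.48 ± 3.13 over 45 cells), a difference of +1.11. Ccnb1, cyclin B1, the main partner of CDK1 at mitotic entry, was lower, with a median of 6.6 in GMP (0 to 10.28, mean 4.86 ± 3.78) and 0.43 in CD11b+ GMP-P (0 to 10.72, mean 3.24 ± 3.93), a difference of -1.63. The populations overlapped over nearly their whole range for both cyclins. Relative to the common genes, Ccna2 differed by +2.16 and Ccnb1 by -0.58. Ccnb1 differed by less than 1 under 4 of the 8 alternative settings, at -0.90 with a pseudocount of 10, -0.36 as a ratio of mean TPM, -0.38 among cells of the shared gene range and -0.85 among cells with at least 4000 genes. Ccna2 did so under 2, at +0.66 with a pseudocount of 10 and +0.89 as a ratio of mean TPM. Ccna2 reached 10 TPM in 14 of 46 GMP cells (30.4%, exact 95% interval by Clopper-Pearson 17.7 to 45.8). In CD11b+ GMP-P it did so in 23 of 45 (51.1%, 35.8 to 66.3). Ccnb1 did so in 28 (60.9%, 45.4 to 74.9) and 16 (35.6%, 21.9 to 51.2). For Ccna2 this contrast depended on the floor, since 31 cells of each population were above 0, whereas Ccnb1 was above 0 in 40 and 26. These intervals, here and below, cover counting error only.

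Ccnb2, cyclin B2, the second mitotic B-type cyclin, had a mean of 4.48 ± 3.85 in GMP (median 4.67, highest 10.42) and 3.81 ± 3.78 in CD11b+ GMP-P (median 3.14, highest 10.22), differed by -0.67 and was found in 26 and 22 cells. The upper quartiles lay close together, at 8.29 and 8.10. Cdk1 itself differed by +0.54, from a mean of 3.85 ± 3.34 (median 3.81, highest 8.51) to 4.39 ± 3.33 (median 5.26, highest 9.30), and reached 10 TPM in 24 and 26 cells. At this floor the kinase and cyclin A2 were found in more cells of CD11b+ GMP-P, and cyclin B1 in fewer. Ccnf, the substrate-binding cyclin F of an SCF ubiquitin ligase, was sparse, in 9 and 6 cells. The phosphatase Cdc25c, which activates CDK1, was found in 12 and 5 cells and differed by -0.87. Its relative Cdc25b was nearly absent, in 1 and 2 cells.

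The Cks proteins, small subunits that bind CDK complexes, were held at 10 TPM by more GMP cells than any other member, 45 for Cks2 and 43 for Cks1b. In CD11b+ GMP-P Cks1b and Smc4 were each held by 38 cells, Bub3 by 35 and Cks2 by 34. Cks2 was above 0 in all 46 GMP cells, from 1.25 to 10.89 with a median of 8.48, and in 40 of 45 CD11b+ GMP-P cells, from 0 to 10.77 with a median of 8.32. Cks1b had medians of 8.75 in GMP (0 to 10.36) and 7.84 in CD11b+ GMP-P (0 to 10.83). For Cks2 the medians thus lay close together, and the difference of means, -1.61 (8.18 ± 1.80 against 6.57 ± 3.69), came with a lower quartile of 7.64 in GMP and 3.56 in CD11b+ GMP-P. Cks1b differed by -1.53 (8.05 ± 2.41 against 6.52 ± 3.25). Relative to the common genes both differences were small, -0.56 for Cks2 and -0.48 for Cks1b. Among cells of the shared gene range the differences were -0.80 and -0.02. Cks2 was called under 3 of the 8 alternatives and Cks1b under 4, with values of -0.17 and -0.51 as ratios of mean TPM, -0.88 and -0.82 under median-of-ratios scaling, -0.97 and -0.46 among cells with at least 4000 genes, and -0.99 for Cks2 with a pseudocount of 10.

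None of the 6 mitotic kinases and chromosomal passenger proteins differed by 1 or more, and the median of the 6 was -0.17. Of measured genes 2.45% were higher and 29.9% lower, and of common genes 3.7% and 51.8%. Aurkb, the Aurora B kinase that corrects chromosome attachment, averaged 4.13 ± 3.71 in GMP (0 to 9.55, median 3.92) and 4.25 ± 3.85 in CD11b+ GMP-P (0 to 9.62, median 4.13), and was found in 24 and 25 cells. Its partners in the passenger complex were Birc5 (survivin) at -0.13, Cdca8 (borealin) at -0.20 and Incenp, the scaffold, at +0.72 (2.17 ± 2.63, median 0.73, highest 8.06 in GMP, and 2.89 ± 2.52, median 2.84, highest 8.08 in CD11b+ GMP-P). Birc5 reached 10 TPM in 33 and 32 cells. Plk1, the Polo-like kinase of mitotic entry and exit, was rarer, in 15 and 14 cells, with a median of 0 in both populations, highest values of 9.4 and 8.66, means of 2.46 ± 3.35 and 2.21 ± 3.26 and a difference of -0.25. Aurka, the Aurora A kinase of the spindle poles, was found in 19 and 13 cells, with medians of 0, highest values of 9.22 and 9.4 and means of 2.60 ± 3.27 and 2.15 ± 3.19 (-0.45). Among cells of the shared gene range Aurkb differed by +2.36, Incenp by +1.80, and Aurka (+1.44) and Plk1 (+1.31) changed sign. Incenp was higher by 1 or more under 4 of the 8 alternatives. Aurkb was so under 2, with +1.03 among cells with at least 4000 genes.

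Kinetochore and checkpoint genes had a median difference of -0.01 over 11 members, with none lower, against 29.9% of measured and 51.8% of common genes. The 1 higher (9.09%, against 2.45% and 3.7%) was Spc25, a subunit of the NDC80 complex that holds microtubules at the kinetochore. Its median was 0.55 in GMP (0 to 9.35, mean 2.93 ± 3.57) and 5.21 in CD11b+ GMP-P (0 to 9.84, mean 4.31 ± 3.95), a difference of +1.37, with 18 cells (39.1%, 25.1 to 54.6) and 25 cells (55.6%, 40 to 70.4) at 10 TPM. The difference was +0.90 with a pseudocount of 10 and +0.94 as a ratio of mean TPM. Ndc80 and Nuf2, the partners of Spc25 in the same complex, differed by only +0.11 and +0.17 and were found in 17 and 17 and in 17 and 16 cells. The centromeric histone Cenpa differed by -0.31, the motor Cenpe by +0.09 and Cenpf by -0.02. Among spindle checkpoint genes, Bub1b (BubR1) differed by -0.01, Mad2l1 by -0.06, Bub3 by +0.16, Ttk (the MPS1 kinase) by -0.42 and Bub1 by -0.47. Bub1b averaged 2.37 ± 3.12 (median 0, highest 8.57) in GMP and 2.35 ± 2.85 (median 0.93, highest 9.25) in CD11b+ GMP-P. Bub1 averaged 2.49 ± 2.89 (median 0.76, highest 8.70) and 2.02 ± 2.79 (median 0.20, highest 8.36), and Ttk 1.80 ± 2.90 and 1.37 ± 2.26 (medians 0, highest 8.68 and 7.37). Among cells of the shared gene range Bub1b (+1.22), Bub1 (+0.96) and Ttk (+0.29) had the opposite sign. Bub3, which is not restricted to mitosis, was the most widely held of them, in 38 and 35 cells, and Cenpf the least, in 8 and 8. Cenpf was nevertheless above 0 in 42 and 38 cells and at 1 TPM or more in 20 and 24, so its share depended on the floor.

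The 8 spindle motors and microtubule proteins had a median difference of +0.14. None was lower, against 29.9% of measured and 51.8% of common genes, and 1 was higher (12.5%, against 2.45% and 3.7%). Nusap1, which bundles spindle microtubules near chromosomes, was higher in CD11b+ GMP-P at +1.11, from a mean of 1.95 ± 2.70 (median 0, highest 8.21) to 3.06 ± 3.42 (median 0.55, highest 9.09), and was found in 14 and 20 cells. That difference was +0.71 with a pseudocount of 10 and +0.76 among cells with at least 4000 genes. Kif11, the Eg5 motor that separates the spindle poles, differed by +0.87 (2.19 ± 2.78, median 0.43, highest 8.30 in GMP, and 3.06 ± 3.22, median 1.51, highest 8.48 in CD11b+ GMP-P). It was higher by 1 or more under 5 of the 8 alternatives, up to +2.10 among cells of the shared gene range. Tpx2, the activator of Aurora A on the spindle, differed by +0.47 (3.30 ± 3.19, median 3.01, and 3.76 ± 3.13, median 3.77, with a highest value of 8.70 in both). The others, Kif4, Hmmr, Kif22, Kif2c and Ckap2, lay between -0.38 and +0.37. Tpx2 and Kif22 were the most widely held of the 8 in GMP, each in 22 cells, and Tpx2 in CD11b+ GMP-P, in 25.

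Chromosome structure genes were the role with the highest median, +0.28. Mki67 encodes Ki-67, the coat protein of mitotic chromosomes used as a proliferation marker, and had the largest positive difference of all 50, +1.76. It ran from 0 to 8.02 in GMP with a median of 2.81 and from 0 to 8.45 in CD11b+ GMP-P with a median of 5.79, and reached 10 TPM in 21 (45.7%, 30.9 to 61) and 31 cells (68.9%, 53.4 to 81.8). The cells that held it at high level thus overlapped between populations, and CD11b+ GMP-P had fewer cells near 0. Mki67 was at 1 TPM or more in 27 and 36 cells but above 0 in 39 and 40, so its share depended on the floor. Top2a, topoisomerase II alpha, which untangles sister chromatids, was found in 30 and 31 cells and differed by +0.29, from 4.89 ± 3.31 (median 6.18, highest 9.01) to 5.18 ± 3.40 (median 6.42, highest 9.17). The condensin subunits Smc2 (+0.35), Smc4 (+0.13), Ncapg (+0.27) and Ncapd2 (-0.18), which compact chromosomes, differed little, and Smc4 was held by 39 and 38 cells. Smc2 averaged 3.96 ± 2.75 (median 4.94, highest 8.07) in GMP and 4.31 ± 2.78 (median 5.42, highest 8.27) in CD11b+ GMP-P. Among cells of the shared gene range Smc2 differed by +2.10 and Top2a by +1.72. Mki67 was higher by 1 or more under each of the 8 alternative settings of scale, scaling and cells, between +1.08 and +2.33.

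Genes of anaphase and mitotic exit held the most negative difference of all 50 and 1 of the 5 higher genes. Of these 4 genes 25% were lower, against 29.9% of measured and 51.8% of common genes. The higher share was also 25%, against 2.45% and 3.7%. Pttg1 encodes securin, the inhibitor of the separase that parts sister chromatids. It ran from 0 to 9.10 in GMP (median 4.57, mean 4.04 ± 3.45) and from 0 to 9.43 in CD11b+ GMP-P (median 0, mean 1.78 ± 2.93), a difference of -2.25. Securin transcripts reached 10 TPM in 26 (56.5%, 41.1 to 71.1) and 11 cells (24.4%, 12.9 to 39.5), and were listed at 0 in 14 and 29 cells. Pttg1 was lower by 1 or more under each of the 8 alternatives, between -3.35 and -1.06, the only one of the 4 lower members for which this held. Ube2c, the ubiquitin-conjugating enzyme that works with the APC/C, went the other way, from a mean of 3.52 ± 4.08 (median 1.23, highest 10.61) to 4.78 ± 4.13 (median 5.60, highest 11.25), in 18 (39.1%, 25.1 to 54.6) and 25 cells (55.6%, 40 to 70.4). Its difference of +1.26 was +0.76 with a pseudocount of 10 and +0.52 as a ratio of mean TPM. Cdc20, the activator of the APC/C in mitosis, differed by -0.28, from 2.80 ± 3.28 (median 0.89, highest 9.76) to 2.52 ± 3.22 (median 0.33, highest 9.55), and was found in 17 and 16 cells. Among cells of the shared gene range it differed by +0.90. Cdca3, which prompts mitotic entry, differed by -0.18, in 32 and 29 cells.

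The 6 genes of the central spindle and cytokinesis had a median of -0.09 and none differed by 1. Of measured genes 2.45% were higher and 29.9% lower, and of common genes 3.7% and 51.8%. Anln (anillin, a scaffold of the contractile ring) differed by +0.69, Racgap1 by +0.46 and Prc1, which bundles midzone microtubules, by +0.17. Toward GMP lay Kif20a (-0.35) and Kif23 (-0.40), motors of the midzone, and Ect2 (-0.76), the exchange factor that activates RhoA at the cell equator. Racgap1 was held by 22 and 23 cells, with means of 3.16 ± 2.99 (median 3.21, highest 8.37) and 3.62 ± 3.38 (median 3.64, highest 10.40). Ect2 was held by 14 and 7, with medians of 0, means of 1.92 ± 2.84 and 1.16 ± 2.25 and highest values of 7.85 and 7.82, and had the opposite sign among cells of the shared gene range. Anln was held by 8 and 11, with medians of 0, means of 1.2 ± 2.01 and 1.89 ± 2.67 and highest values of 7.16 and 8.38. Racgap1 and Anln were each higher by 1 or more under 3 of the 8 alternatives. In the shared gene range they differed by +2.22 and +1.86. Ect2 was lower by 1 or more under 1 alternative.

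**Figure D2:**
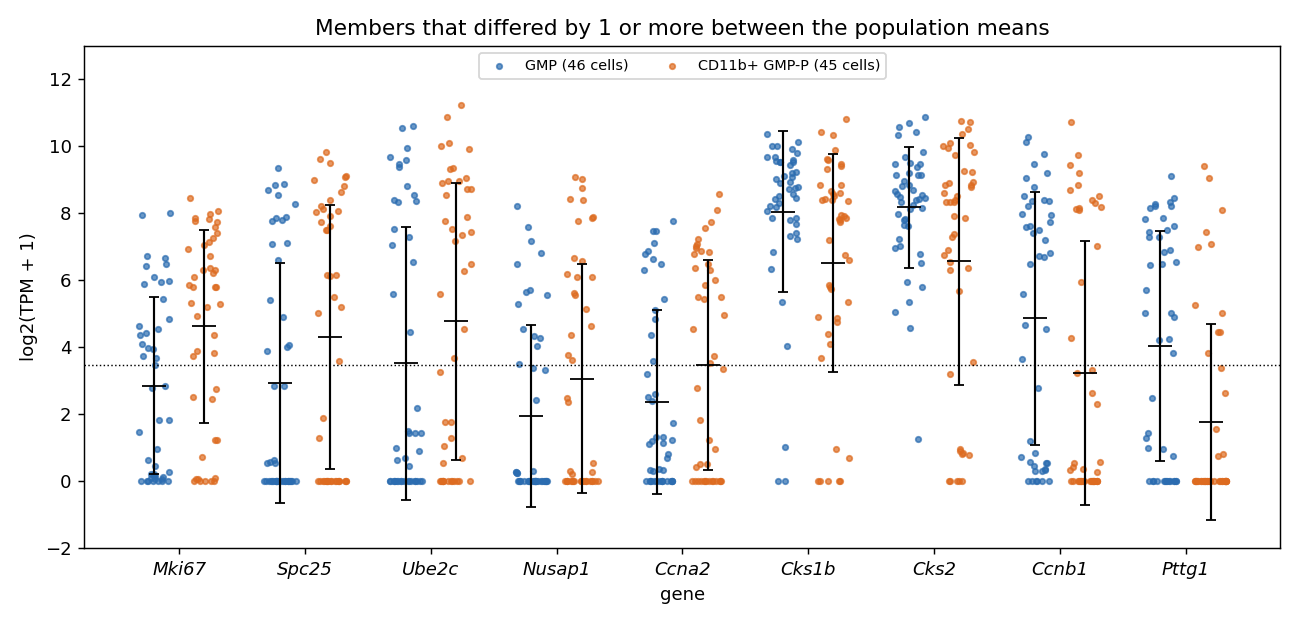
Level of the 9 genes that differed by 1 or more, as log2(TPM + 1) on the y axis, with 1 point per cell, blue for the 46 GMP and orange for the 45 CD11b+ GMP-P, black marks for mean ± SD, a dotted line at 10 TPM and sideways scatter only to separate points. For each gene the populations overlap, and the highest values lie above 8 in both except for Ccna2 in GMP (7.78).

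**Figure D3:**
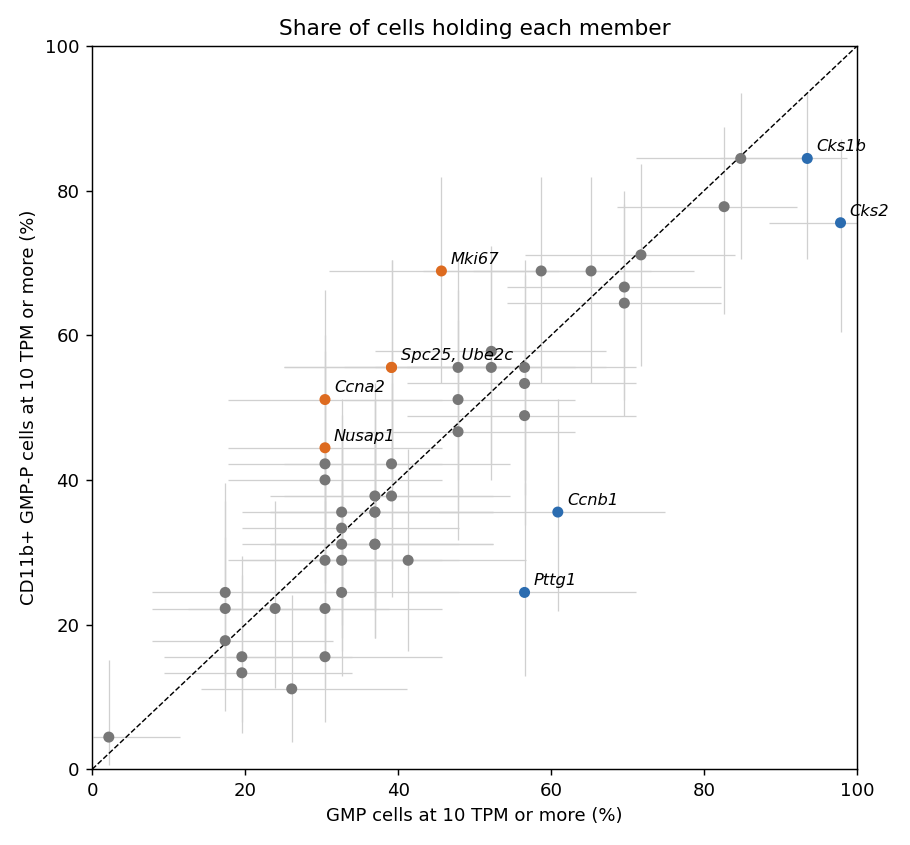
Share of cells at 10 TPM or more for each of the 50 genes, GMP on the x axis and CD11b+ GMP-P on the y axis, with gray bars for exact 95% intervals and a dashed line of equal shares. Pttg1 (56.5% and 24.4%) and Ccnb1 (60.9% and 35.6%) lie farthest below the line, and Mki67 (45.7% and 68.9%) and Ccna2 (30.4% and 51.1%) farthest above it.

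Single cells held anywhere from almost none to almost all of the 50 genes. GMP cells held between 1 and 48 members at 10 TPM or more, with a median of 19.5 and quartiles of 13 and 30. CD11b+ GMP-P cells held between 0 and 42, with a median of 21 and the same quartiles. At least 25 members were held by 19 of the former (41.3%, 27 to 56.8) and 21 of the latter (46.7%, 31.7 to 62.1). At least 40 were held by 3 and 2 cells, and at most 5 by 4 and 5. The populations were thus close in how many mitosis genes a cell held. The summed level of the 50 genes ran from 43.9 to 12112 TPM in GMP (median 3923) and from 5.18 to 13125 TPM in CD11b+ GMP-P (median 4165).

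**Figure D4:**
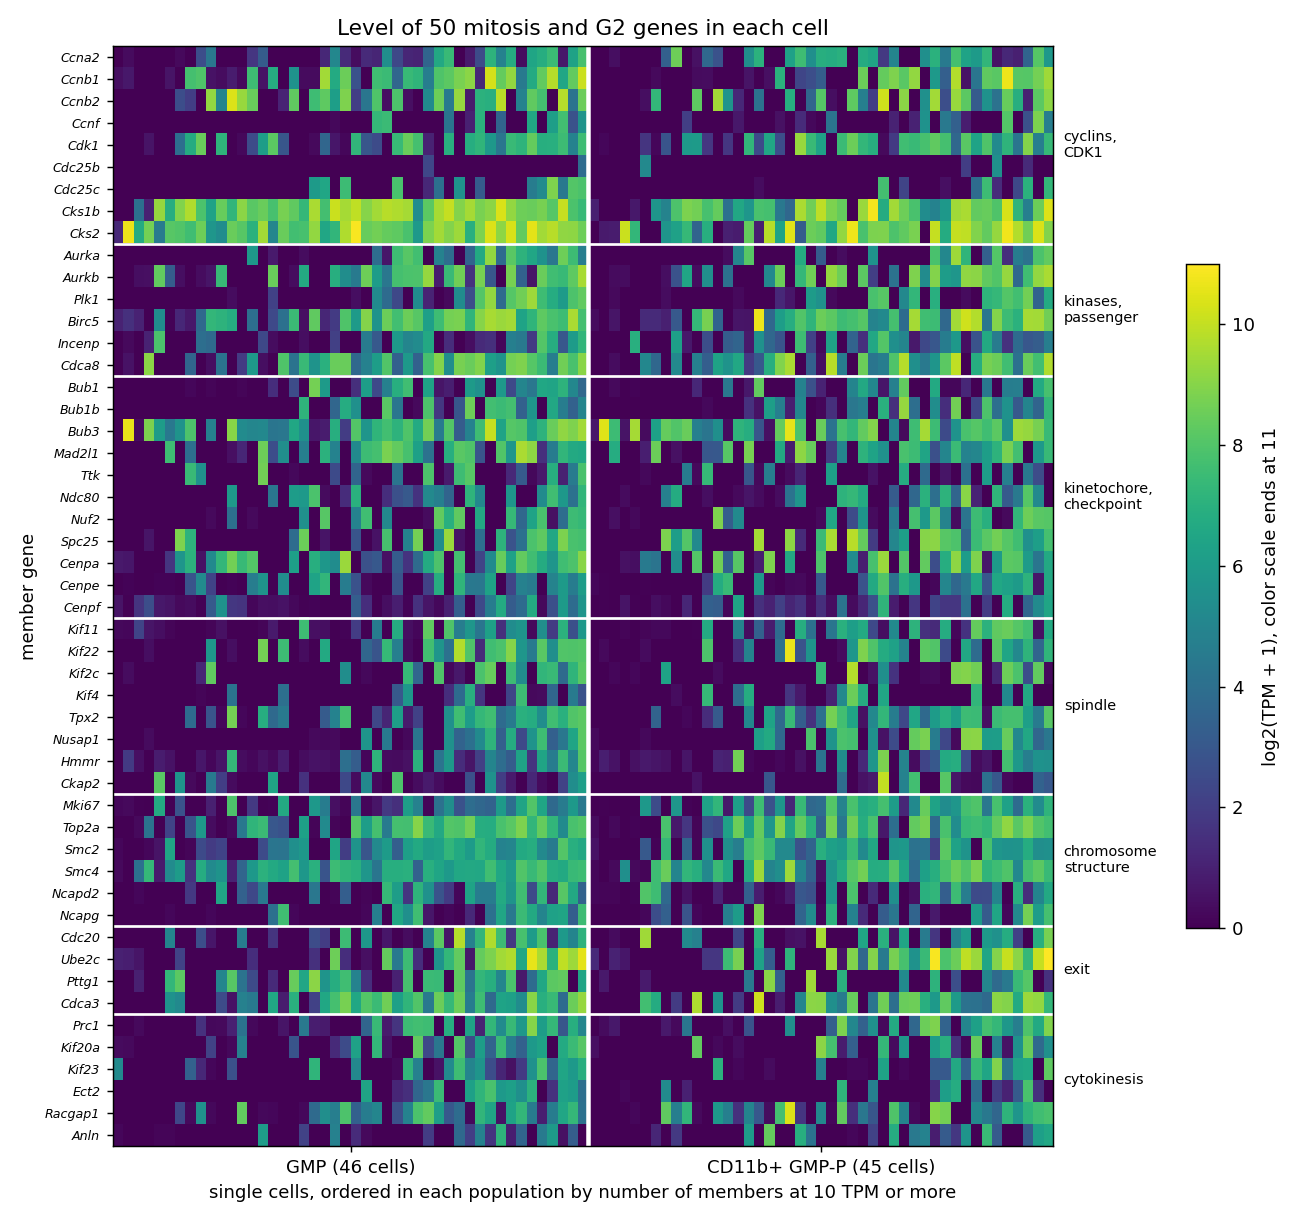
Level of the 50 genes (rows, grouped by role) in 46 GMP cells (left) and 45 CD11b+ GMP-P cells (right), as log2(TPM + 1) in color, with cells ordered in each population by how many members they held at 10 TPM or more. Cks1b and Cks2 are high in most cells of both populations, whereas Cdc25b is near 0 in almost all.

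The number of members held moved with the number of genes detected, within each population. The correlation over cells was 0.71 (Pearson) and 0.68 (Spearman) in 46 GMP cells, and 0.55 and 0.49 in 45 CD11b+ GMP-P cells. Without the 2 cells farthest from the median the Pearson values were 0.66 and 0.50. Both measures come from the same library of a cell, so they share its quality and composition. Of the 17 GMP cells above 5645 genes, 13 held at least 25 members (median 35), against 6 of the 26 GMP cells between 3947 and 5645 genes (median 14). In CD11b+ GMP-P, 10 of 21 cells in that range held at least 25 (median 21), and 8 of 21 below it did (median 18). Restricting both populations to the shared range therefore left out most GMP cells with at least 25 members. It also left out 8 such CD11b+ GMP-P cells below the range and 3 above it. In that setting 27 members were higher in CD11b+ GMP-P, and the part of the lost cells in this was not tested.

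**Figure D5:**
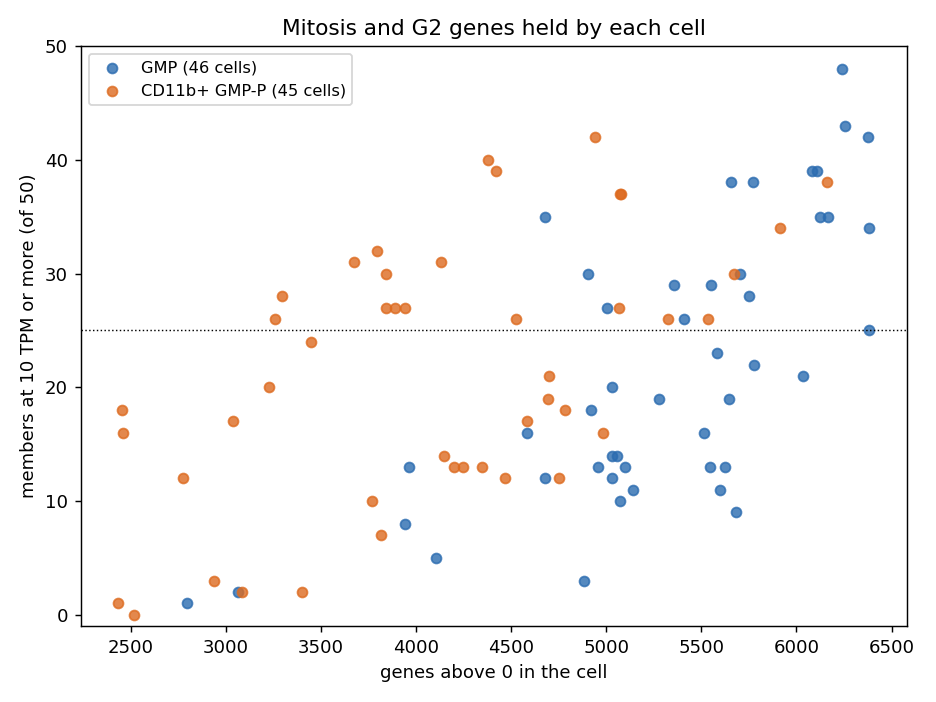
Number of the 50 genes at 10 TPM or more (y axis) against genes above 0 (x axis) for single GMP (blue, 46) and CD11b+ GMP-P (orange, 45) cells, with a dotted line at 25 members. GMP cells with at least 25 members lie mostly to the right, 13 of 19 above 5645 genes, while CD11b+ GMP-P cells with as many are spread over the x axis.

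Pairs of genes that act together or in sequence were counted in the same cells, all at 10 TPM or more. Cyclin A2 without cyclin B1 was found in 1 GMP cell and in 14 cells of CD11b+ GMP-P. Both were found in 13 and 9 cells, and cyclin B1 alone in 15 and 7. Mki67 without Ccnb1 was found in 6 and 16 cells, both in 15 and 15, and Ccnb1 without Mki67 in 13 and 1. Nearly every GMP cell with cyclin A2 thus also held cyclin B1, which was not so in CD11b+ GMP-P. Ccnb1 and Ccnb2 were held together by 19 and 11 cells, and Ccnb1 and Cdk1 by 19 and 13, with Cdk1 alone in 5 and 13. Mki67 and Top2a were held together by 17 and 26 cells.

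Most other pairs had closer counts in the populations. Aurkb and Birc5 were together in 21 and 23 cells, Bub1 and Bub1b in 9 and 9, Ndc80 and Nuf2 in 11 and 9, and Cdc20 and Ube2c in 11 and 12. Cks1b and Cks2 were together in 43 and 31 cells, and neither was held by 1 and 4. For Plk1 and Aurka the counts were 13 and 7. For securin, in pairs chosen after its values were seen, Ube2c without Pttg1 was found in 5 and 18 cells, and Mki67 without Pttg1 in 6 and 23. Counts of this kind are not adjusted for the share of cells that held each gene.

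Members varied together across cells within each population. Each gene's level was set against the mean level of the other 49 members by Spearman correlation, as a description over 46 GMP cells and 45 CD11b+ GMP-P cells that share library and composition. The medians over the 50 genes were 0.56 and 0.52, and 35 and 28 genes reached 0.5. Among all other measured genes the median with the members' mean was 0.11 and 0.12, and 0.713% and 0.9% reached 0.5. Of the 10030 measured genes 5133 were common genes, and of the 50 members 40 were, so these shares were not matched for detection. In GMP the highest values were those of Plk1 (0.83), Nusap1 (0.75) and Aurka (0.74), and in CD11b+ GMP-P those of Ube2c (0.74), Tpx2 (0.74), Ccnb1 (0.69), Bub1b (0.69) and Birc5 (0.69). Low values were found for Cdc25b (0.24 and 0.20), Pttg1 (0.31 and 0.33) and, in CD11b+ GMP-P, Bub3 (0.13), Kif4 (0.15) and Ttk (0.18). Of the 71 and 89 other genes that reached 0.5, 28 and 24 stood on the further cell cycle lists described next, which held 156 measured genes. These included the tubulin genes Tubb5 and Tubb4b in both populations, and Foxm1, the transcription factor of G2 genes, in GMP only at this size. The difference between the populations in these correlations was not tested.

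Members held per cell bore little relation to S phase levels, and their relation to granule genes differed in value between the populations. Against the mean level of 24 S phase genes, Spearman's rho was 0.16 for GMP and 0.08 for CD11b+ GMP-P (Pearson 0.18 and 0.20, and 0.02 and 0.03 without the 2 farthest cells). Against the mean level of the 12 late granule genes it was 0.39 for GMP and -0.15 for CD11b+ GMP-P (Pearson 0.33 and -0.11, and 0.39 and -0.29 without the 2 farthest cells). Against the mean level of the GMP and primary granule genes it was 0.32 for GMP and 0.18 for CD11b+ GMP-P (Pearson 0.41 and 0.26, and 0.24 and 0.21 without the 2 farthest cells). Both measures of a cell come from 1 library, so they share its depth and composition, and the difference between the populations was not tested.

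Most genes of the further lists of mitotic machinery differed by less than 1. The counts on these lists stand against 2.45% of measured genes called higher and 29.9% called lower, and 3.7% and 51.8% of common genes. The 21 other spindle and cytokinesis genes had a median difference of +0.04, with none higher and 1 lower (Kif2a, -1.02). Of 16 other genes of G2 entry and CDK1 control (median -0.02), Fbxo5, the EMI1 inhibitor of the APC/C, was higher at +1.52 (2.05 ± 2.99 in GMP, 3.57 ± 3.43 in CD11b+ GMP-P), as was the phosphatase Cdc25a at +1.19. Ensa, a phosphatase inhibitor of mitotic entry, was lower at -1.38. The 30 other kinetochore and centromere genes had a median of -0.44, with 2 higher, among them Sgol2 (shugoshin 2, +1.31), and 6 lower, among them Cenpm (-1.71) and Cenpw (-1.48). The 14 other condensin and cohesin genes had a median of -0.58 and 3 lower, Ncaph2 (-1.70), Pds5a (-1.08) and Smc1a (-1.03). Of the 20 genes named from the further lists that differed by 1 or more, 6 did so under all 8 alternatives (Cdc26, E2f4, Cdkn2d, Mcm6, Mcm4 and Mcm2). Another 7 did so under 4 or fewer (Ensa, Anapc5, Cenpm, Cenpw, Kif2a, Smc1a and Tubb4b).

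Of 16 APC/C and separase genes, 8 were lower by 1 or more (50%, near the 51.8% of common genes) and none was higher, with a median of -0.98, close to that of the common genes. The list's lowest values were Cdc26 (5.91 ± 2.90 in GMP, 2.70 ± 2.99 in CD11b+ GMP-P, -3.21), Cdc23 (-2.01) and Anapc5 (-1.54). Cdc26 was found at 10 TPM in 38 and 18 cells and was lower by 1 or more under all 8 alternatives. The 24 S phase genes, which act before the members do, had a median of -0.83, with 10 lower (41.7%, between the shares of measured and common genes), none higher and Mcm6 (-2.80), Mcm4 (-2.76) and Mcm2 (-2.46) farthest. The 11 tubulin and stathmin genes had a median of -0.45, and only Tubb4b was called (-1.18).

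Of 21 E2F, DREAM and FOXM1 regulators none was higher and 2 were lower, E2f4 (-2.12, in 24 and 14 cells), a repressor E2F, and Lin37 (-1.33), a MuvB subunit, with a median of -0.16. E2f8 differed by +0.90. Among 12 CDK inhibitors and antiproliferative genes 1 was higher, Cdkn2d, which encodes the INK4 inhibitor of CDK4 and CDK6. Its mean was 3.11 ± 3.36 over GMP cells and 5.29 ± 3.67 over the others (+2.18). It reached 10 TPM in 20 and 32 cells and was higher by 1 or more under all 8 alternatives. Cdkn1b (p27) differed by +0.89 and Cdkn2c by +0.86. Cdkn2a and Cdkn2b were listed at 0 in every cell.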

How the data were processed

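The authors deposited 1 table of log2 values, 1 column per cell and 91 cells in all. Returned to linear scale after subtraction of 1, each cell summed to between 999999 and 1000076, so the values are log2(TPM + 1), and 80.3% of them are 0. RSEM and the mouse build mm9 are named per the submitters' processing notes. Neither aligner nor annotation is given in the sources used here. Per the labels' protocols, cells were captured on a Fluidigm C1 chip and libraries made with SMARTer and Nextera XT kits. Such libraries lack molecular identifiers and strand marks, so reads of overlapping genes cannot be told apart. Ccnb1, Cks1b and Kif4 have named copies that could take or add reads, so their values are less certain, and the copies Cks1brt and Kif4-ps were listed at 0 in every cell.

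Groups were taken from the labels. Mean log2(TPM + 1) was compared as CD11b+ GMP-P less GMP, SDs are over cells, and a size of 1 was called. With 1 sample a group, no p-value was made. Shares of cells use a floor of 10 TPM with exact Clopper-Pearson intervals at 95%. No 2 cells correlated above 0.736, so none was a repeat of another. No doublet caller was run, and 1 alternative drops the 5% of cells with most genes. The members and all lists were chosen with earlier results of these data known. Values were given in full for 12 fixed members and for the 3 members of each role with the largest absolute difference, while up to 3 genes of each further list, and all other members, were given by differences or counts. Genes outside this rule are markers of the sort or of other cell types. The planned protein comparison was not run. The alternatives tried were a pseudocount of 0.1 or 10, a ratio of mean TPM, median-of-ratios size factors (1210 genes), TPM rescaled after dropping the 50 highest genes, 3 restrictions on genes detected, filters on members, and floors of 0 and 1 TPM. The calculation was tested on GMP cells redrawn into both groups, with known changes put into some genes detected in 50% or more of them. Both groups drew on the same cells, so that test did not cover the difference in genes detected between the populations. Tools were Python 3.11.15, numpy 2.4.6, pandas 2.3.3 and scipy 1.17.1.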

Additional observations from a re-analysis of the deposited data

How the results depend on the processing

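The count of members higher by 1 or more (5) was 5 to 7 with a pseudocount of 0.1, the ratio of mean TPM, both other scalings, both member filters and without the cells with the most genes. The share of measured genes, 2.45% in the main setting, was 4.17% with a pseudocount of 0.1. It was 3.92% with median of ratios scaling and 3.57% without the 50 highest genes. With the ratio of mean TPM 6 of the 50 members were higher, against 10.3% of measured genes. A pseudocount of 10 gave 1, against 0.897%. Cells with at least 4000 genes gave 10 (3.44%) and cells of the shared gene range 27 (5.88%). The count lower (4, against 29.9% of measured genes) was 2 with a pseudocount of 10 (12.6%) and with median of ratios scaling (19.8%). It was 1 in each of those restrictions of cells (17.6% and 16.7%). The median difference (-0.04) was +1.07 in the shared range and lay between -0.06 and +0.35 under the other 9 alternatives. Relative to common genes, 25 members were higher, against 23.2% of measured genes. The count was 38 with a pseudocount of 0.1, 6 with a pseudocount of 10 and 16 with the ratio of mean TPM. The matching shares of measured genes were 40.5%, 2.8% and 18.7%. The 1 lower became 0 with a pseudocount of 10. The share of cells with at least 25 members became 67.4% for GMP and 73.3% for CD11b+ GMP-P when any level above 0 counted, and 23.1% in GMP in the shared range. In the shared range 7 of the 26 members with values in full changed sign, Aurka to +1.44, Plk1 to +1.31, Bub1b to +1.22, Ect2 to +0.997, Bub1 to +0.96, Cdc20 to +0.90 and Ttk to +0.29. So did 5 of the 27 other genes named, Ensa to +0.10, Cenpm to +0.25, Tubb4b to +0.41, Depdc1a to +0.77 and Tuba1a to +0.16. That restriction was set on genes above 0 alone. It left out 17 GMP cells above the range and 3 below it. In CD11b+ GMP-P it left out 3 cells above the range and 21 below it. The cause of the changes in the shared range and under the other alternatives was not tested. Among the alternative differences of the 26 members, 159 kept their side of 1, 25 came to pass it and 21 no longer did. Another 3 came to pass it with the opposite sign. For the 27 other genes the counts were 147, 22 and 44, and another 3 no longer passed it and changed sign. No paired analysis was possible because the labels name no animal.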
